A study of Mus musculus with 96 samples.

Results

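The elastic fibre and microfibril genes are the 10 genes *Eln*, *Fbn1*, *Fbn2*, *Fbln1*, *Fbln5*, *Mfap2*, *Mfap4*, *Mfap5*, *Efemp2* and *Emilin1*, taken by symbol from a count table of 41575 gene symbols, and each symbol was found once. Their level was followed in 16 tissues of wild-type mice and Scx-/- mice, both 3 weeks old. *Scx* encodes Scleraxis, a transcription factor of tendon and ligament. Bulk RNA from whole organs was sequenced by MuSeq, a multiplexed method that reads the 3' ends of polyadenylated transcripts. This follows the sample labels and the methods, whereas the record of the series names limb cells and a Smart-seq2 technique. There were 3 libraries for each tissue and genotype and 96 libraries in all, 48 per genotype. Neither strain, sex and the lacking part of *Scx* nor the mouse behind each library is stated, so p-values measure the spread between libraries. Levels are CPM, a gene's count scaled to the total count of its library, and "±" after a mean of CPM is the SD over 3 libraries.

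Elastic fibres give arteries, lung and skin their recoil. They are built on microfibrils, in which the fibrillins form the backbone and the small glycoproteins Mfap2 and Mfap5 are bound to it. Tropoelastin, the product of *Eln*, is deposited on this scaffold and crosslinked by lysyl oxidases. The fibulins Fbln5 and Efemp2 help to bring tropoelastin to the microfibrils, Emilin1 sits where elastin and microfibrils meet, and Mfap4 is a secreted glycoprotein that binds elastic fibre components. Many of these genes are active in fibroblasts and smooth muscle cells, so in bulk tissue fewer such cells and less RNA per cell cannot be told apart.

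Scleraxis is a basic helix-loop-helix protein, a class known to bind the E-box motif CANNTG. The RefSeq promoter table for GRCm38.p6, the assembly behind mm10, held windows for 6 of the 10 genes, 11 start sites in all, and 5 of these windows of 250 bases held CANNTG (overlapping matches allowed; the motif reads the same on both strands). Of all 32851 windows of this length, 66.2% held it. The windows upstream of the first listed start of the 3 fibulin genes are shown, because these genes differ in where they are expressed and 2 of them had the next lowest mean differences after *Mfap4*. E-boxes are in capitals, and each sequence is written 5' to 3' along the gene's strand. They are *Fbln1* at chr15:85205699-85205948 (plus strand, one CACGTG), *Fbln5* at chr12:101819120-101819369 (minus strand, one CAATTG) and *Efemp2* at chr19:5473696-5473945 (plus strand, no match).
Fbln1: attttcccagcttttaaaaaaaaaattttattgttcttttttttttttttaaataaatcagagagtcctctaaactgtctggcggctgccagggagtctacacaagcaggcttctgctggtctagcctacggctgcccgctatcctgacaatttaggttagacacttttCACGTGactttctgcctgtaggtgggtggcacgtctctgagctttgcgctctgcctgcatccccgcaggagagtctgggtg
Fbln5: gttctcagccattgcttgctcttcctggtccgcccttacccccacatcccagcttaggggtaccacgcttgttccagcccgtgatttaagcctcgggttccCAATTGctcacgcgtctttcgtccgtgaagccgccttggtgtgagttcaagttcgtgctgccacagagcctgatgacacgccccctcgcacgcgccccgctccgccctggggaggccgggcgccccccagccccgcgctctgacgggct
Efemp2: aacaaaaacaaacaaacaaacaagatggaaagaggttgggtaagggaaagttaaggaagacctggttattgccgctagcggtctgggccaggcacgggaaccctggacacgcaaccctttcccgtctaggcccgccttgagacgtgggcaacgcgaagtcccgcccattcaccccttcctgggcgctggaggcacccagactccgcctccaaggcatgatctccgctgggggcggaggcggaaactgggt
A match of these letters is a description of the window and not a measured binding site.

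Library totals ranged from 11244 to 1658192 counts (median 251640), and 16 libraries held fewer than 100000 counts. *Scx* had at least 1 count in 12 of 48 wild-type libraries (80 counts) and in 1 of 48 Scx-/- libraries (9 counts). Marker genes of skeletal muscle, cardiomyocytes, hepatocytes, kidney tubule, lung epithelium, urothelium, gastric cells, neurons (cortex) and spleen cells took their highest mean share of counts in the tissue so labelled, while chondrocyte genes took 0.634% in wild-type cartilage and 0.803% in wild-type bone. The libraries labelled adipose held 25.1% to 34.3% of their counts in genes of pancreatic acinar cells and at most 0.0159% in adipocyte genes. The study left its vascular samples out of later comparisons as contaminated. In these libraries adipocyte genes took 1.40% of wild-type and 0.997% of Scx-/- counts on average, smooth muscle genes 0.622% and 0.949%, and endothelial genes 0.0449% and 0.0319%. *Eln* was detected in all 96 libraries (27417 counts). *Fbn1*, *Fbln5* and *Fbln1* were found in 88, 85 and 79 libraries. *Mfap4*, *Emilin1*, *Mfap5*, *Efemp2* and *Mfap2* were found in 75, 72, 67, 67 and 61. *Fbn2*, with 241 counts in 39 libraries, was too sparse for firm statements in any tissue.

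**Figure D1:**
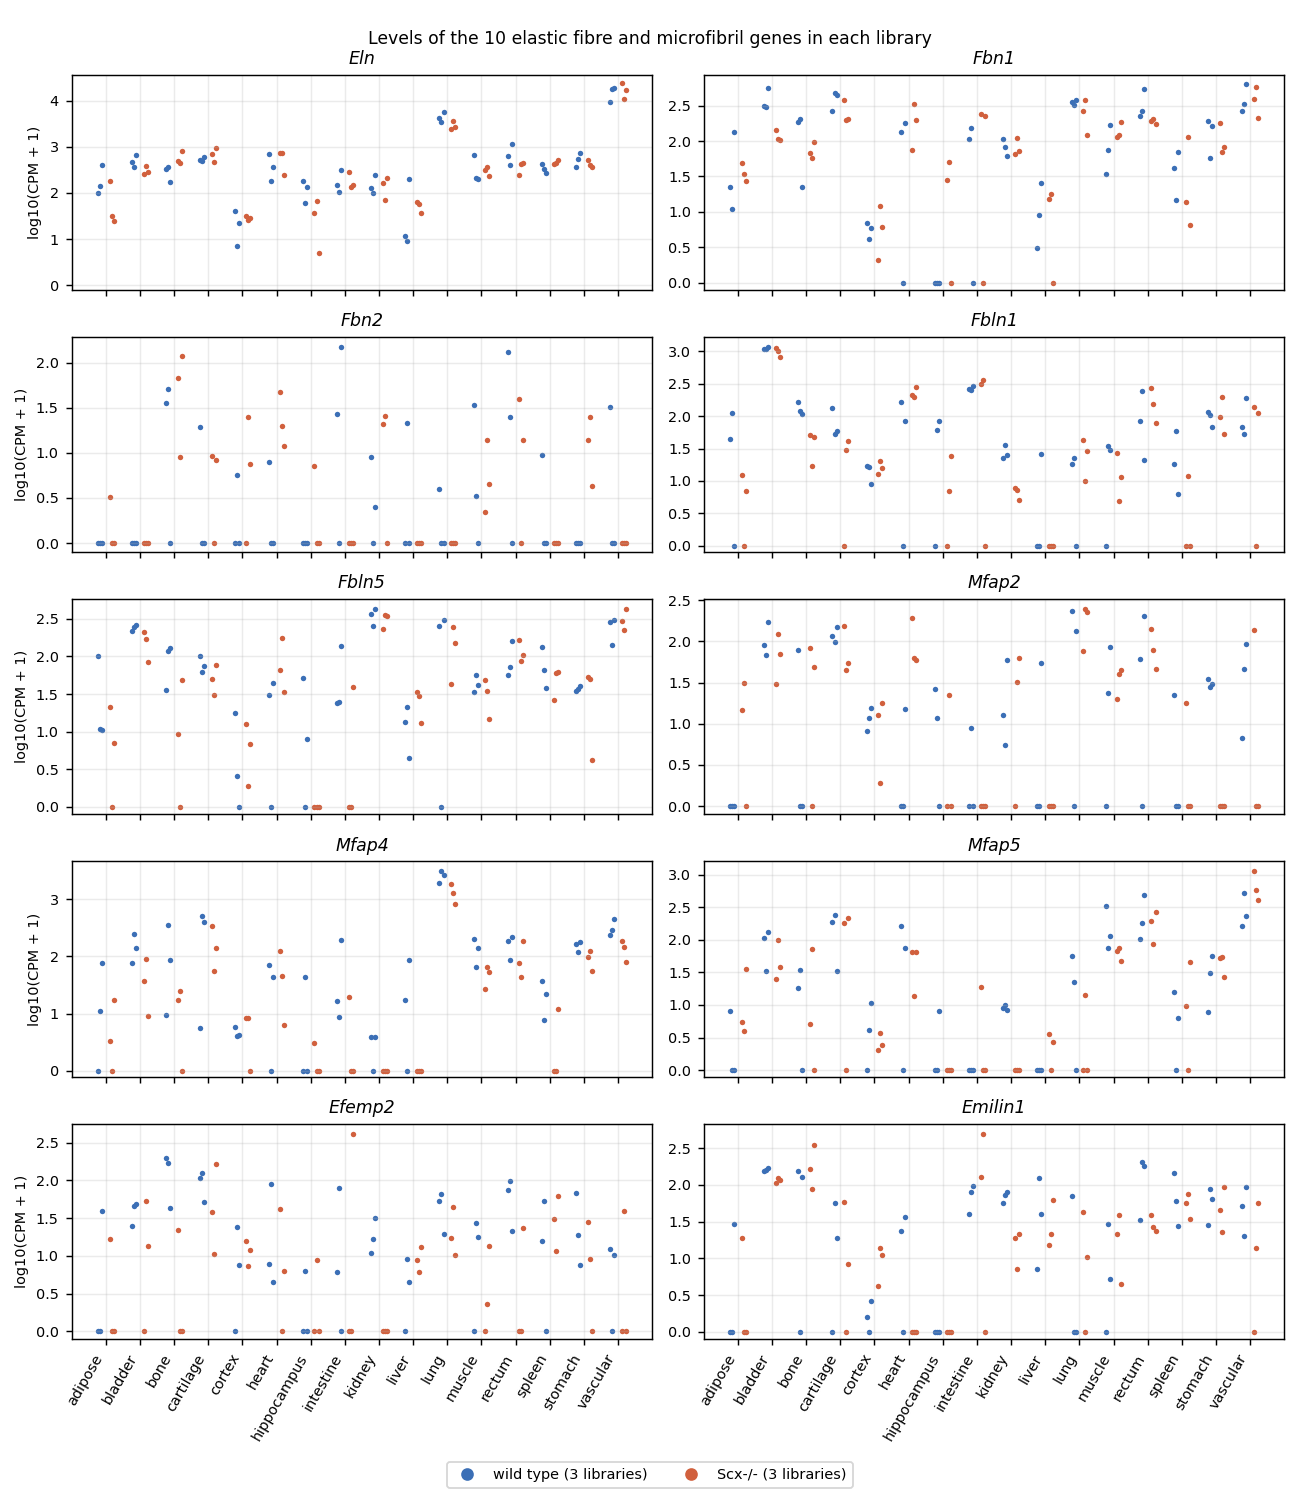
Each panel shows 1 gene, with the 16 tissues on the horizontal axis and log10(CPM + 1) on the vertical axis, whose range differs between panels. Each point is 1 library, blue for wild type and orange for Scx-/-. *Eln* stands highest in vascular and lung libraries of both genotypes, *Mfap4* in lung and *Fbln1* in bladder, while *Fbn2* is at 0 in most libraries.

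The genes did not share a leading tissue. In wild-type mice *Eln*, *Fbn1* and *Mfap5* had their highest mean in vascular samples, *Mfap4* and *Mfap2* in lung, *Fbln1* and *Emilin1* in bladder, *Fbln5* in kidney, *Efemp2* in bone and *Fbn2* in intestine. By the median the leading tissue was another one for 3 of them, cartilage for *Fbn1*, rectum for *Emilin1* and bone for *Fbn2*. Because the leading tissue was chosen on wild-type libraries, it was tested on the 48 Scx-/- libraries alone, by edgeR's quasi-likelihood test of that tissue against the mean of the other 15. That mean is over log2 levels, on which a tissue without counts weighs heavily. Folds given later are ratios of mean CPM and need not match the log2 differences. For 8 of the 10 genes the tissue was called higher in Scx-/- libraries (adjusted p under 0.05 and log2 fold change above 1), and *Efemp2* and *Fbn2* were not called. *Fbn2* had no count in the Scx-/- intestines, so its test could not have called it. Of all 20852 genes tested, the same rule called 2.26% in vascular, 5.43% in lung, 7.51% in bladder, 9.02% in kidney, 4.08% in bone and 2.33% in intestine. Neighbouring tissues in a gene's order of mean level were compared by a two-sided exact permutation test of log2(CPM + 1), 6 libraries against 6. None of the 150 pairs passed after adjustment over all of them. The lowest p such a test can give, 0.00216, was reached by 4 pairs and adjusted to 0.0812. At an unadjusted p under 0.05 there were 11 such pairs, and in those 4 (*Eln* vascular above lung, *Eln* lung above cartilage, *Fbln1* bladder above intestine and *Mfap4* lung above cartilage) all 6 libraries of the higher tissue lay above all 6 of the lower.

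*Eln* (chromosome 5, 134702593 to 134747323, minus strand, in the GENCODE annotation of GRCm38) had a steep tissue gradient. The wild-type vascular libraries held 9490, 18309 and 19130 CPM and the Scx-/- vascular libraries 24298, 10826 and 17058 CPM. In lung, *Eln* was at 4147, 3467 and 5602 CPM in wild-type and 2455, 3653 and 2768 CPM in Scx-/- libraries. All 6 vascular libraries were therefore above all 6 lung libraries, and every lung library was above every library of the other 14 tissues. Vascular *Eln* was 26.3 times the mean CPM of the other 15 tissues in wild type and 36.0 times in Scx-/- mice. By edgeR, against the mean of log2 levels, the log2 difference in Scx-/- mice was 5.72 ± 0.21 (SE, adjusted p = 1.86e-156). At the lower end stood the cortex, with 6.22 to 39.2 CPM. The genotypes overlapped in 15 of the 16 tissues. Bone was the exception, with 329, 368 and 170 CPM in wild-type and 499, 443 and 804 CPM in Scx-/- libraries, and the log2 fold change of 1.04 there did not pass the test (adjusted p = 0.636). Of all genes, 2.79% did not overlap with Scx-/- higher in bone.

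*Fbn1*, the fibrillin of postnatal microfibrils (chromosome 2, 125300594 to 125507993, minus strand), was spread more evenly. Its mean over 6 libraries was 401 CPM in vascular samples, 325 in cartilage, 302 in lung, 266 in rectum and 254 in bladder. No pair of these neighbours passed the permutation test after adjustment. Pairs without overlap did not pass it either, so it cannot show that these levels are alike. Vascular *Fbn1* was 2.77 times the mean CPM of the other tissues in wild type and 3.47 times in Scx-/- mice (edgeR's log2 difference 1.87 ± 0.47, adjusted p = 0.00566). This call was lost when the first or the second Scx-/- replicate was left out (adjusted p = 0.128 and 0.0701) and when libraries under 100000 counts were left out (0.147).

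The bladder gave the single call between genotypes within a tissue. *Fbn1* stood at 308, 305 and 560 CPM in the wild-type bladders and at 141, 106 and 103 CPM in the Scx-/- bladders, so the genotypes did not overlap. The means were 391 ± 146 and 117 ± 20.9 CPM, and the log2 fold change was -1.80 ± 0.39 (SE, adjusted p = 0.00519). This was 1 of 158 pairs of gene and tissue tested, where 0.0914% of all pairs of gene and tissue were called in either direction and 0.0792% of the bladder's genes were called lower. Of the bladder's genes, 5.18% did not overlap with wild type higher. Without the wild-type bladder of replicate 3, which held the highest value, the log2 fold change was -1.47 and the call was lost (adjusted p = 0.616). With filterByExpr it was -1.76 and the call was lost too (adjusted p = 0.226). *Fbn1* overlaps *Gm9913* on the opposite strand, and with no strand setting stated their reads cannot be told apart. The 6 fibroblast genes *Col1a1*, *Col1a2*, *Col3a1*, *Dcn*, *Lum* and *Pdgfra* together took 3.19% to 4.56% of the counts of the wild-type bladders and 1.91% to 2.32% of those of the Scx-/- bladders, again without overlap, with all 6 detected in both genotypes. Smooth muscle genes took 4.05% and 3.75% on average, with overlap. The part of these cell markers in the *Fbn1* difference was not tested.

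In rectum *Fbn1* also did not overlap, at 225, 265 and 543 CPM in wild-type and 191, 204 and 172 CPM in Scx-/- libraries, but the test was not passed (adjusted p = 0.816). Of all genes in rectum, 2.23% did not overlap with wild type higher. In hippocampus the mean of *Fbn1* went the other way, with 0 counts in the wild-type libraries and 26.9, 48.8 and 0 CPM in the Scx-/- libraries. The genotypes overlapped there, and edgeR's test was not passed (adjusted p = 0.762). The wild-type hippocampus libraries were also shallower, with at most 184695 counts against at least 255264. *Fbn2*, the second fibrillin, had its counts scattered over tissues, and its leading tissue differed between genotypes. In bone it was at 34.7, 50.2 and 0 CPM in wild-type and 66.5, 8.05 and 118 CPM in Scx-/- libraries. In intestine its wild-type values were 25.8, 0 and 149 CPM, and no count was found in the 3 Scx-/- intestines, which held at most 54955 counts each.

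*Mfap4* (chromosome 11, 61485431 to 61488900, plus strand) was the 1 gene of the 10 whose mean difference between genotypes over the 16 tissues passed the test. In lung, its leading tissue, the wild-type libraries held 1924, 3039 and 2594 CPM and the Scx-/- libraries 1851, 1279 and 811 CPM, so the genotypes did not overlap, although the highest Scx-/- library came close to the lowest wild-type one. The vascular libraries were at 240, 285 and 440 CPM in wild type and 183, 143 and 78.2 CPM in Scx-/- mice. The muscle libraries were at 197, 64.3 and 141 CPM and at 26.1, 63.4 and 51.9 CPM, so the genotypes all but met there too. The 197 CPM is 6 counts in a library of 30409. Lung, vascular samples and muscle were the 3 tissues without overlap, all with wild type higher. None of them passed the test within its tissue (adjusted p = 0.741 in lung, 0.672 in vascular samples and 0.773 in muscle). Of all genes, 2.53%, 5.06% and 2.17% did not overlap in that direction there. The Scx-/- mean was the lower one in 14 of the 16 tissues. Heart and cortex were the exceptions, with means of 37.7 and 57.5 CPM in heart and of 3.73 and 4.93 CPM in cortex for wild type and Scx-/-.

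**Figure D2:**
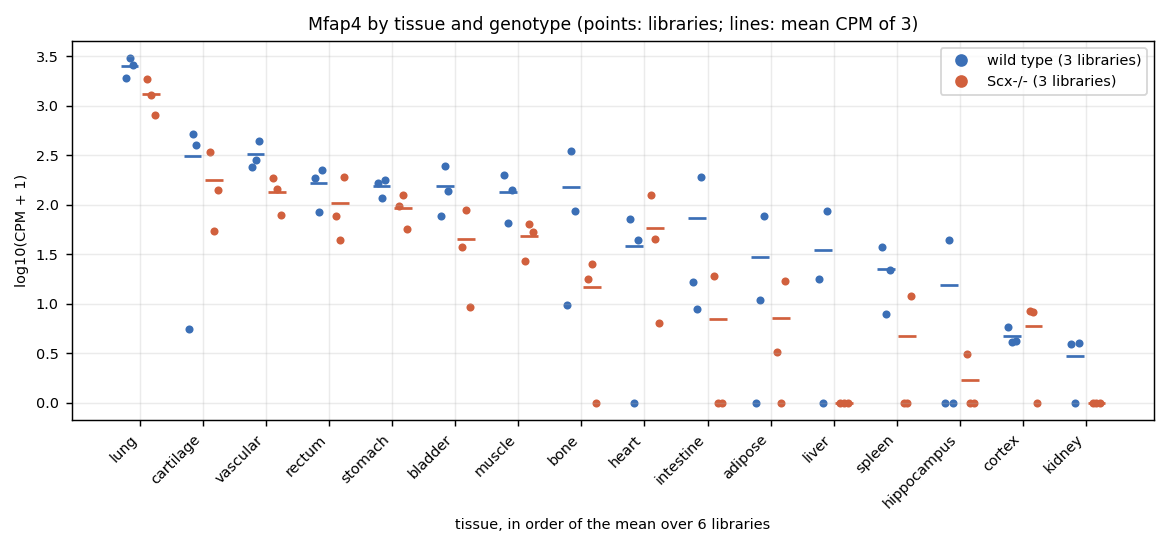
*Mfap4* in each library as log10(CPM + 1), with the tissues ordered by their mean over 6 libraries. Points are libraries and short lines the mean CPM of the 3 libraries of a genotype, blue for wild type and orange for Scx-/-. The orange line lies below the blue one in 14 of 16 tissues.

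With the tissue as a covariate over all 96 libraries, edgeR gave *Mfap4* a mean log2 fold change of -1.13 ± 0.23 (SE, adjusted p = 0.000549). It was the only 1 of the 10 genes called, and 0.147% of the 22493 genes tested were called lower and 0.485% in either direction. The call held under each alternative tried, with values from -1.58 (DESeq2) to -1.01 (without wild-type replicate 3, adjusted p = 0.0364). Leaving out 1 tissue at a time gave -1.24 to -1.04. *Mfap4* overlaps *Mapk7* on the opposite strand, and without a stated strand setting their reads cannot be told apart. The same limit holds for *Eln* with *Gm30003* and *Fbn2* with *Gm26507*. *Mapk7* had a mean log2 fold change of 0.46 ± 0.43 (adjusted p = 0.838).

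Marker genes of several cell types are given beside this difference. Of the 6 fibroblast genes 4 had a mean log2 fold change below 0 and 2 above it, and 1, the collagen gene *Col1a1*, was called (-0.64 ± 0.14, adjusted p = 0.00114). *Dcn* (0.24) and *Pdgfra* (0.62) lay above 0. The summed share of the 6 genes had a lower mean in the Scx-/- libraries in 14 of 16 tissues and did not overlap in 5 (bladder, bone, heart, intestine and muscle). In lung it was 0.367% to 0.612% of counts in wild type and 0.278% to 0.372% in Scx-/- mice. Of the 6 tenocyte genes, which include *Scx* itself, 5 lay below 0 (median -0.52, against -0.44 for fibroblast genes) and 0 were called, with a lower mean share in Scx-/- libraries in 11 tissues and no overlap in 4 (bladder, bone, heart and muscle). Of the 6 smooth muscle genes 5 lay below 0 and 0 were called, with a lower mean share in Scx-/- libraries in 12 tissues and no overlap in 2. For mesothelium 4 of 5 genes lay below 0 and 0 were called, with a lower mean share in 13 tissues and no overlap in 1. All 6 adipocyte genes lay below 0 (median -0.84), and 1, *Ucp1* of brown fat, was called (-2.64 ± 0.34, adjusted p = 5.31e-11), with a lower share in 12 tissues, and the share of osteoblast genes, which include *Col1a1*, was lower in 15. Other lists lay above 0. All 7 pancreatic acinar genes were called higher (median 1.39), as were 2 of 5 hepatocyte genes (median 0.61) and 1 of 5 epidermis genes (median 1.42). Even so, the mean share in Scx-/- libraries was lower in 8 of 16 tissues for acinar, 7 for hepatocyte and 7 for epidermis genes. Endothelial genes, whose median mean difference was 0.09, took 0.181% and 0.177% of lung counts. The part of these cell markers in the *Mfap4* difference was not tested.

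*Mfap5* and *Mfap2*, the other microfibril-associated glycoproteins, gave no mean difference that passed the test (-0.14 ± 0.27 and -0.08 ± 0.27). *Mfap5* (chromosome 6, 122505845 to 122529290, plus strand) stood at 163, 530 and 229 CPM in wild-type vascular and at 1120, 583 and 402 CPM in Scx-/- vascular libraries, which overlap. Vascular *Mfap5* was 5.48 times the mean of the other tissues in wild type and 17.8 times in Scx-/- mice (adjusted p = 2.23e-25 in the latter). *Mfap2* (chromosome 4, 141010418 to 141015984, plus strand) was at 234, 0 and 132 CPM in wild-type and 74.4, 246 and 224 CPM in Scx-/- lungs. The difference of lung from the other tissues passed in Scx-/- mice (log2 3.38 ± 0.66, adjusted p = 2.49e-05), while its mean in wild-type cartilage, 120 CPM, was close to that of wild-type lung, 122 CPM. By mean CPM lung was 3.41 times the other tissues in wild type and 5.03 times in Scx-/- mice.

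The *Mfap2* libraries of the genotypes did not overlap in heart and in stomach, in opposite directions. In heart its level was 0, 0 and 14.2 CPM in wild-type and 192, 62.6 and 59.3 CPM in Scx-/- libraries. The wild-type heart library of replicate 2 had the lowest total of the series, 11244 counts, so its 0 says little. In stomach *Mfap2* was at 34.0, 26.9 and 29.7 CPM in wild type and had no count in the 3 Scx-/- libraries, where 3 counts would be 2.17 CPM over the group, so that it was at least 14.1-fold lower. Neither passed the adjusted test (adjusted p = 0.738 in heart and 0.797 in stomach). Of all genes, 3.77% did not overlap with Scx-/- higher in heart and 2.92% with wild type higher in stomach.

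Among the fibulins, *Fbln1* (chromosome 15, 85205949 to 85286535, plus strand), a fibulin of basement membranes and elastic fibres, marked the bladder. It stood at 1092, 1085 and 1178 CPM in wild-type and 1127, 1027 and 827 CPM in Scx-/- bladders, a narrow range in which the genotypes overlapped. The bladder was 15.5 times the mean CPM of the other tissues in wild type and 15.6 times in Scx-/- mice (edgeR's log2 difference 5.22 ± 0.37, adjusted p = 8.05e-42). Elsewhere it did not overlap in 4 tissues, with wild type higher in bone (165, 117 and 106 against 49.9, 16.1 and 47.3 CPM), cartilage and kidney and Scx-/- higher in heart. None of these 4 passed edgeR's test (adjusted p = 0.731 to 0.791), and of all genes 2.93% in bone, 3.27% in cartilage and 7.33% in kidney did not overlap with wild type higher and 3.77% in heart with Scx-/- higher. Its mean difference over 16 tissues was -0.62 ± 0.23 and was not called by edgeR (adjusted p = 0.311), while DESeq2 called it (-0.86, adjusted p = 0.0233). The median of all genes was -0.16 in that DESeq2 fit and 0.03 in edgeR's.

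*Fbln5* (chromosome 12, 101746565 to 101819055, minus strand) had a kidney level of 361, 253 and 422 CPM in wild-type and 232, 353 and 346 CPM in Scx-/- libraries. The kidney was called higher than the other tissues in Scx-/- mice (log2 3.17 ± 0.46, adjusted p = 5.97e-10), where vascular samples had a similar mean, 313 CPM against 311 CPM. By mean CPM the kidney was 4.12 times the other tissues in wild type and 4.41 times in Scx-/- mice. In bladder *Fbln5* did not overlap, at 216, 248 and 263 CPM against 211, 169 and 82.3 CPM, without passing the test (adjusted p = 0.804). Of all genes in bladder, 5.18% did not overlap with wild type higher. *Efemp2*, which encodes fibulin-4 (chromosome 19, 5473954 to 5482517, plus strand), led in the bone of wild-type mice, at 199, 167 and 42.4 CPM. In Scx-/- bone it was at 20.8, 0 and 0 CPM, 5 counts in all, and bone was not called higher than the other tissues there (log2 -0.16 ± 1.30, adjusted p = 1). The difference between genotypes in bone did not pass the test (log2 -3.56, adjusted p = 0.636), and these bone libraries were shallow, from 42272 to 240564 counts. *Efemp2* overlaps *Mus81* on the opposite strand, whose mean difference over 16 tissues was 0.25 ± 0.34 against -0.67 ± 0.32 for *Efemp2* (adjusted p = 0.891 and 0.569).

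*Emilin1* (chromosome 5, 30913402 to 30921277, plus strand) was tight in the bladder, with 155, 157 and 172 CPM in wild-type and 104, 122 and 115 CPM in Scx-/- libraries. These did not overlap, and the log2 fold change of -0.57 did not pass the test (adjusted p = 0.808). In kidney it was at 55.1, 72.7 and 78.8 CPM in wild-type and 17.9, 6.14 and 20.6 CPM in Scx-/- libraries, again without overlap and without an adjusted call (log2 -2.30 ± 0.90, adjusted p = 0.791). Of all genes, 5.18% in bladder and 7.33% in kidney did not overlap with wild type higher. The bladder was called higher than the other tissues in Scx-/- mice (log2 2.49 ± 0.61, adjusted p = 0.00154), although intestine and bone had higher Scx-/- means there, of 209 ± 260 and 203 ± 137 CPM. By mean CPM the bladder was 3.42 times the other tissues in wild type and 2.46 times in Scx-/- mice. *Emilin1* had no Scx-/- count in heart and hippocampus.

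**Figure D3:**
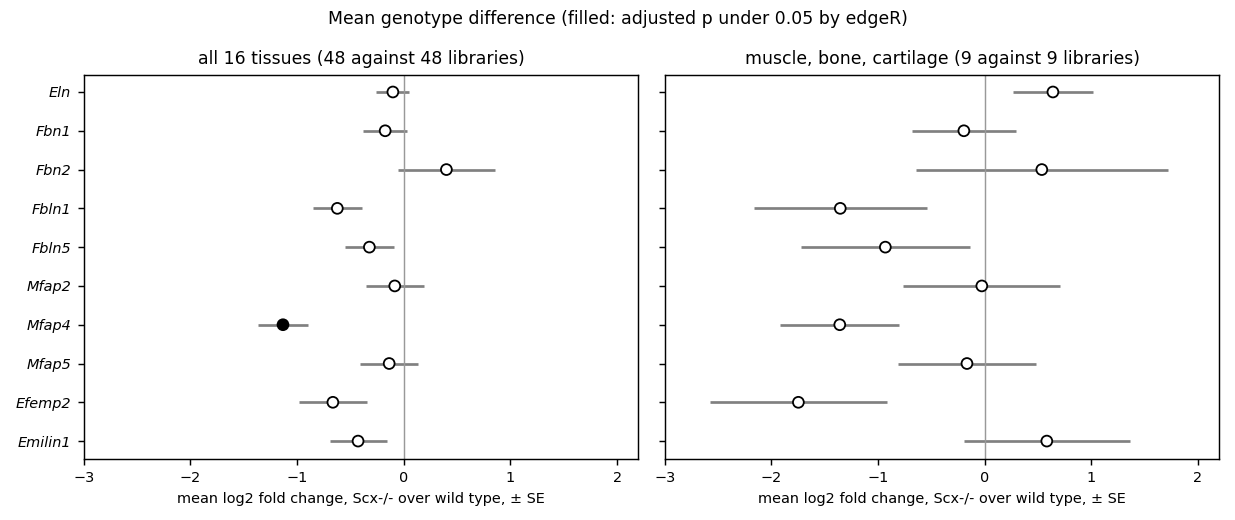
Mean log2 fold change of Scx-/- over wild type for the 10 genes, with bars of 1 SE, over all 16 tissues (left) and over muscle, bone and cartilage (right). Filled points have an adjusted p under 0.05, which holds for *Mfap4* over 16 tissues at -1.13.

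Over 16 tissues 9 of the 10 genes had a mean log2 fold change below 0 and 1, *Fbn2*, above 0, with a median of -0.25 beside 0.03 for all genes tested. An unadjusted p under 0.05 was reached by 3, all lower (*Mfap4*, *Fbln1* and *Efemp2*), beside 3.45% of all genes lower and 8.13% in either direction. The musculoskeletal tissues, on which the study centred its genotype comparison, were tested together as muscle, bone and cartilage. There 0 of the 10 genes were called by edgeR, beside 0.0242% of all genes, and DESeq2 also called 0. At an unadjusted p under 0.05 there were 2 (*Efemp2*, -1.75 ± 0.83, and *Mfap4*, -1.36 ± 0.56), beside 6.96% of all genes in either direction. *Eln* lay above 0 in these tissues (0.64 ± 0.37, adjusted p = 0.699). The median of all genes in this comparison was 0.13 with the TMM scaling, -0.02 and -0.03 with RLE size factors and with library totals, and -0.25 with DESeq2. Whether the genotype difference varied between tissues was asked by the interaction of genotype and tissue, for which edgeR called 0 of the 10 genes (0.142% of all genes). *Mfap2* was the 1 gene with an unadjusted p under 0.05 there, beside 5.32% of all genes (adjusted p = 0.745).

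At the study's own thresholds, an unadjusted p under 0.05 and a fold change above 2, 11 of the 158 pairs of gene and tissue passed. Of these 9 were lower in Scx-/- (5.7% of pairs) and 2 were higher (1.27%), where all genes gave 1.85% in each direction. The libraries did not overlap in 15 pairs with wild type higher and in 6 with Scx-/- higher (9.49% and 3.8% of pairs, beside 3.86% and 4.11% of all pairs, which take in genes of every level). Of the 15 pairs, 4 lay in kidney and 3 in bladder, where the share of all genes with wild type higher was larger, at 7.33% and 5.18%. The lower pairs were *Fbn1* and *Mfap4* in bladder, *Emilin1* and *Efemp2* in kidney, *Emilin1* in heart, *Mfap2* in stomach, *Mfap2* and *Mfap4* in liver and *Mfap4* in vascular samples. The higher pairs were *Mfap2* in heart and *Fbn1* in hippocampus. With the exception of *Fbn1* in bladder, the adjusted p of these pairs lay above 0.05.

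**Figure D4:**
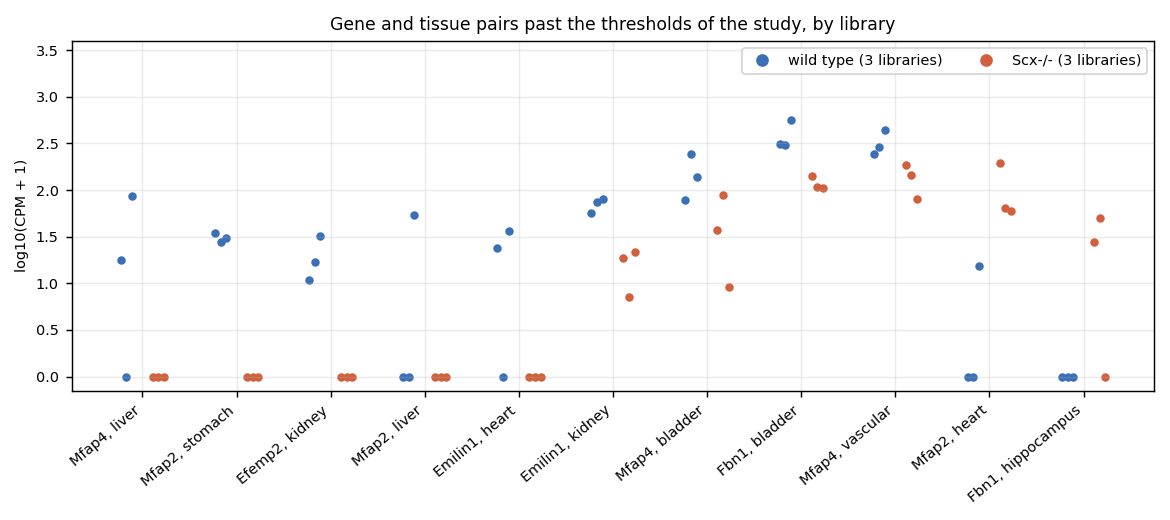
The 11 pairs of gene and tissue past the study's thresholds, ordered by log2 fold change, with log10(CPM + 1) of each library, blue for wild type and orange for Scx-/-. In 5 of the pairs all Scx-/- libraries are at 0, and in *Fbn1* in hippocampus all wild-type libraries are.

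In kidney *Efemp2* was at 9.85, 15.9 and 31.2 CPM in wild type and had no count in Scx-/- mice, where it was at least 5.93-fold lower. The wild-type kidneys were deeper, with at least 672218 counts against at most 447350, and their endothelial genes also lay higher without overlap (0.0181% to 0.0244% against 0.011% to 0.0148% of counts), while fibroblast genes overlapped. In bladder *Mfap4* was at 76.5, 243 and 137 CPM in wild-type and 36.4, 87.4 and 8.23 CPM in Scx-/- libraries, with overlap (adjusted p = 0.559). In liver *Mfap4* was at 16.6, 0 and 84.7 CPM against no count in Scx-/- mice, at least 20.4-fold lower over the group. That value and the *Mfap2* counts of wild-type liver came mainly or wholly from replicate 3, in which *Eln* (205 CPM) and *Fbln1* (24.7 CPM) were the highest of the 3 wild-type livers too, whereas *Emilin1* was highest in replicate 2 (122 against 38.8 CPM in replicate 3) and *Fbln5* lowest in replicate 3 (3.53 CPM). In heart *Emilin1* was at 22.7, 0 and 35.5 CPM against no count. Of the 11 pairs, 2 (*Fbn1* in bladder and *Mfap2* in stomach) passed the study's thresholds whichever replicate was left out. *Mfap4* in bladder and *Emilin1* in kidney lost them without wild-type replicate 2, *Efemp2* in kidney and *Mfap4* in liver without wild-type replicate 3, and *Mfap2* in heart without replicate 1 of either genotype. *Emilin1* in heart, *Fbn1* in hippocampus, *Mfap2* in liver and *Mfap4* in vascular samples lost them without any 1 of several replicates. Of the other fits, *Fbn1* in hippocampus lost them in all 4 that tested it (RLE size factors, library totals, replicate block and DESeq2) and *Emilin1* in heart under the replicate block and DESeq2. *Mfap4* in liver lost them under DESeq2, *Mfap2* in liver under the replicate block, and *Mfap4* in vascular samples under RLE size factors and library totals.

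The wider pathway was followed in 47 genes of elastic fibre assembly and turnover. At the adjusted threshold edgeR called 0 of them over 16 tissues, 0 over muscle, bone and cartilage, 0 for a difference that varies between tissues and 0 of 622 pairs of gene and tissue. At an unadjusted p under 0.05 the mean difference over 16 tissues gave 3 of 47, all lower, beside 3.45% of all genes lower and 8.13% in either direction. The median of the 47 was -0.11, with 31 below 0 and 16 above. All 5 lysyl oxidase genes, the crosslinking enzymes, lay below 0 (median -0.47), the most abundant being *Lox* (-0.27 ± 0.23, adjusted p = 0.813). The latent TGF-beta binding proteins and their ligands had 3 below and 4 above 0 (*Ltbp4*, 0.14 ± 0.20), and the ADAMTS family of microfibrils 2 below and 6 above (*Adamtsl4*, 0.56 ± 0.35). Other fibulins and EMILIN proteins had 7 below and 2 above (*Efemp1*, -0.05 ± 0.29), integrins and other partners 8 and 2 (*Dcn*, 0.24 ± 0.15), and elastin-degrading enzymes 6 and 2 (*Ctsl*, 0.31 ± 0.18). Within tissues 10 pairs passed the study's thresholds as lower and 7 as higher (1.61% and 1.13% of pairs), beside 1.85% of all genes' pairs in each direction.

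Pathway genes joined the 10 genes in some leading tissues. In the Scx-/- vascular libraries 5 of the 46 pathway genes tested were called higher than in other tissues, the crosslinking enzymes *Lox* and *Loxl1*, *Bgn*, *Itga8* and *Thsd4*, beside *Eln*, *Fbn1*, *Fbln5*, *Mfap4* and *Mfap5*. Of all genes, the same rule called 2.26% in vascular, 5.43% in lung and 7.51% in bladder libraries. In lung 11 pathway genes were called, among them *Lox*, *Ltbp2* and *Ltbp4*, the latter a partner of Fbln5 in elastic fibre assembly, beside *Eln*, *Fbln5*, *Mfap2* and *Mfap4*. In bladder there were 11, among them *Loxl2*, *Ltbp3*, *Fn1* and *Efemp1*, beside *Fbln1*, *Fbln5*, *Mfap2* and *Emilin1*. Cartilage was the leading wild-type tissue of no gene of the 10 by mean, and 6 of them (*Eln*, *Fbn1*, *Mfap2*, *Mfap4*, *Mfap5* and *Efemp2*) were called higher there, with 13 pathway genes (*Lox*, *Loxl2*, *Loxl3*, *Adamtsl4*, *Bgn*, *Ctsk*, *Dcn*, *Fbln7*, *Fn1*, *Ltbp2*, *Ltbp3*, *Mmp2* and *Mmp9*). The rule called 5.81% of all genes in cartilage. In bone 18 of the 46 pathway genes were called, beside 4.08% of all genes, with *Fbn2* and *Emilin1* of the 10. The *Fbn2* call there rests on 22 counts (16, 1 and 5 in the Scx-/- bone libraries) of a sparse gene. In kidney 5 of the 46 pathway genes were called, near the 9.02% of all genes, with *Fbln5* of the 10. In muscle 3 of the 10 genes (*Fbn1*, *Mfap4* and *Mfap5*) and 9 pathway genes were called, beside 8.43% of all genes, and in rectum 3 (*Fbln1*, *Mfap4* and *Mfap5*) and 8, beside 7.81%. In heart it was 2 (*Fbln1* and *Mfap2*) and 7, beside 4.56%, and in stomach 2 (*Fbln1* and *Mfap4*) and 2, beside 8.37%. In the other 6 tissues 0 of the 10 genes were called by this rule, which called 23.6% of all genes in cortex, 16.6% in hippocampus, 9.62% in liver, 6.91% in spleen, 3.78% in the libraries labelled adipose and 2.33% in intestine. Of the 46 pathway genes it called 1 in cortex, 1 in hippocampus, 2 in liver, 5 in spleen and 0 in the libraries labelled adipose and in intestine.

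Across libraries the 10 genes followed each other loosely. Over all 96 libraries Pearson's r of log2(CPM + 1) ranged from -0.001 to 0.68 over the 45 pairs (median 0.27), the highest being *Eln* with *Mfap4* (0.68) and *Eln* with *Fbn1* (0.66). Within groups, after each group's mean was removed, the median was 0.065 and the highest 0.35. Libraries share their tissue and their depth, so these values are descriptive. Among 10916 genes with a mean of at least 10 CPM in the 48 wild-type libraries, *Mfap4* was second in likeness to *Eln* (r = 0.70, and 0.68 in Scx-/-), between *Cd36* (0.71) and *Ogn* (0.69), and *Eln* was second to *Mfap4*, between *Cdh5* (0.72) and *Col6a2* (0.68). *Ogn* was also among the 3 genes most like *Fbn1* (0.87), *Mfap5* (0.69) and *Fbln5* (0.65). For *Fbn1*, *Zak* and *Crispld2* came next (0.83 and 0.78), and their r in the Scx-/- libraries was 0.35 and 0.34. In the Scx-/- libraries *Ogn* had r of 0.63 with *Fbn1*, 0.44 with *Mfap5* and 0.55 with *Fbln5*, and *Cd36* had 0.81 with *Eln*. The genes most like *Efemp2* (*Col5a2*, 0.68), *Emilin1* (*Zc3hav1*, 0.72), *Fbln1* (*Fgl2*, 0.69), *Fbln5* (*Snhg18*, 0.73), *Mfap2* (*Fam198b*, 0.66) and *Fbn2* (*Mall*, 0.50) had r of -0.18, 0.24, 0.30, 0.68, 0.51 and 0.08 in Scx-/- libraries. All these genes were picked by their high r in wild type, so lower values in Scx-/- libraries do not measure a genotype difference.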

How the data were processed

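Counts per gene symbol were deposited as whole numbers without normalization. The authors mapped reads to mm10 with Bowtie2 and counted them with HTSeq, with no statement of tool versions, annotation, strand setting or molecular identifiers. CPM on library totals was computed from the counts for levels. Genotypes were compared within each tissue, over 16 tissues with the tissue as a covariate and over muscle, bone and cartilage. edgeR 4.0.16 (R 4.3.3) was used with TMM factors and robust quasi-likelihood fits, after genes at 0 in all libraries of a fit were removed, with Benjamini-Hochberg adjustment over all genes tested. Fits over all tissues took the dispersion from glmQLFit. Exact permutation tests used scipy 1.17.1. DESeq2 1.42.0 (the tool of the study), other scalings, filterByExpr, a replicate block and left-out libraries were alternatives. The scripts were tested on simulated counts.

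The 10 genes and the lists were chosen with earlier results of these data known. Named were all 10 genes, pairs of gene and tissue past a threshold, the most abundant pathway gene of each role, pathway genes called in a leading tissue (in part by number) and the 3 genes most like each of the 10 (in part). Floors are 3 counts over a group and cover counting error only. No replicate pair agreed within sampling noise (chi-square per degree of freedom at least 6.93 over 96 pairs). Gene positions are from the GENCODE annotation of GRCm38 and sequences from RefSeq.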

Additional observations from a re-analysis of the deposited data

Results flagged for a closer look

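*Fbln1* had libraries without overlap in opposite directions in different tissues, none of which passed edgeR's test (adjusted p = 0.731 to 0.791). Of all pairs of gene and tissue, 3.86% did not overlap with wild type higher (7.33% in kidney) and 4.11% with Scx-/- higher. Its log2 fold change in Scx-/- was -1.66 in bone, -1.76 in cartilage and -2.29 in kidney, where wild type was higher, and 1.01 in heart, where Scx-/- was higher. In heart the wild-type libraries were at 166, 0 and 81.7 CPM, the 0 being that of the library with 11244 counts, and the Scx-/- libraries at 210, 194 and 280 CPM. In kidney the levels were 21.7, 35.2 and 23.8 CPM against 6.71, 6.14 and 4.12 CPM (6 counts in all), and in cartilage 133, 52.4 and 58.0 CPM against 0, 29.2 and 39.9 CPM. These tissues were picked for their direction, and the difference between them was not tested. The interaction over all 16 tissues did not pass for *Fbln1* (edgeR, adjusted p = 1). *Mfap2* likewise had a log2 fold change of 3.85 in heart, with Scx-/- higher, and a fitted value of -6.63 in stomach, where it had no count in Scx-/- libraries and the fitted value is no bound. For *Emilin1* the value was 3.42 in cortex, with 2 counts in wild type against 31 in Scx-/- libraries, and -0.57 in bladder and -2.30 in kidney, with wild type higher. These differences between tissues were not tested singly either, and the interaction gave adjusted p = 0.745 for *Mfap2* and 1 for *Emilin1*.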

How the results depend on the processing

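Of 85 counts of called genes or pairs under an alternative, 80 stayed within 1.5 times their value, and of 558 single values 541 kept their direction and side of the threshold. With filterByExpr the within-tissue call of *Fbn1* in bladder fell from 1 to 0 and the pairs past the study's thresholds from 11 to 6; fewer genes were tested there. With 1 replicate left out these counts were 0 to 1 and 6 to 11, with the low ends without wild-type replicate 3. DESeq2 called 2 genes over 16 tissues, *Mfap4* and *Fbln1*. Leading tissues called in Scx-/- numbered 7 to 8. With the replicate number as a block, 1 gene and tissue pair passed the adjusted p, 8 passed the study's thresholds, and 1 gene was called over 16 tissues. Deviations of same-numbered libraries had r over 0.1 in 0 of 48 pairs between genotypes of a tissue and in 0 of 360 pairs between tissues of each genotype. Of other-numbered pairs between tissues, 1 of 720 passed this cut in wild type and 0 of 720 in Scx-/-, so it could hardly show a pairing. The median r between tissues was 0.0140 for same-numbered and -0.0070 for other pairs in wild type, and 0.0135 and -0.0065 in Scx-/-. Whether tissues came from the same mouse was not tested.

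Signs turned in 11 cases, all far from the threshold in both fits. Over 16 tissues these were *Eln* without wild-type replicate 3 (0.071, from a range of -0.32 to 0.071 with 1 replicate left out) and *Mfap2* without wild-type replicate 3 (0.29, range -0.38 to 0.29), without liver (0.0052) and without stomach (0.065); leaving out single tissues was chosen after seeing the data. Over muscle, bone and cartilage they were *Fbn2* without wild-type replicate 3 (-0.11, range -0.11 to 2.11), *Mfap5* without wild-type replicate 1 (0.0052, range -0.47 to 0.0052), and *Mfap2* without wild-type replicates 1 and 3 (0.17 and 0.33), without Scx-/- replicates 2 and 3 (0.24 and 0.034; range -0.63 to 0.33) and with the replicate block (0.16). The cause was not tested. Depth limits the low genes: in 40 of 160 pairs a genotype held at most 3 counts.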
